A study of Mus musculus with 9 samples.

Results

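The 44 genes described here belong to the proteasome: subunits of the 26S proteasome, its activators and inhibitors, and the factors that assemble it. They were taken by gene symbol from a table of 29756 entries, each symbol matched 1 entry, and the interferon-induced subunits of the immunoproteasome were left out. The list follows what the gene products do, and it was drawn up with earlier results of these data known. By role they are 7 genes of the core alpha ring, 7 of the core beta ring, 6 base ATPases, 4 other base subunits, 8 lid subunits, 5 activators and inhibitors, and 7 assembly factors.

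The proteasome is the barrel-shaped protease that degrades proteins tagged with ubiquitin, and neurons depend on it to clear damaged and misfolded proteins. Its 20S core holds the cutting sites inside stacked rings, and the 19S particle at either end binds ubiquitin chains, removes them, unfolds the substrate with a ring of ATPases and feeds it into the core. Dedicated chaperones build the rings, other activators can take the place of the 19S particle, and in mammals the transcription factor Nfe2l1 raises the subunit genes together when proteasome activity falls short.

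The 9 RNA libraries were made from HT22 cells, a line immortalised from mouse hippocampal neurons. The labels give 3 libraries of an intervention group, 3 of an experimental group and 3 of a control group, all of the same line. Per the series title, the study concerned treatment of neurons stimulated with hemin (heme with oxidised iron) by the micelle PPP8. Which group was given which agent, at what dose and for how long, is absent from the labels, so the groups keep their label names. It is also not stated whether replicates were separate cultures, so the p-values here reflect the spread among these libraries alone, and that spread may be technical. The values are FPKM, fragment numbers scaled to gene length and to the mapped fragments of the library. The gene lengths used are not given, so comparisons of level between genes are uncertain.

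The libraries summed to 316912 to 339943 FPKM, and 11154 to 11732 entries per library reached 1 FPKM. Over the 11974 entries tested, the median log2 difference was -0.207 between experimental and control, 0.095 between intervention and experimental, and -0.104 between intervention and control, so member differences are also given relative to these medians. Of 12 neuronal marker genes, 1 (Tubb3, a neuronal tubulin) reached 1 FPKM in every library, and Snap25 did so in control replicate 1 alone; Rbfox3 and Map2 stayed under 1 FPKM in every library. Intervention replicate 3 stood apart in the neuronal markers other than Tubb3, which summed to 0.18 FPKM there, against 2.21 to 4.7 FPKM in the other 8 libraries. Its number of entries reaching 1 FPKM, 11308, lay within the range of the other libraries. Results that rest on intervention replicate 3 are also given without it. The 15 markers of astrocytes, microglia and macrophages, oligodendrocytes and endothelium were each under 1 FPKM in every library.

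Most proteasome genes were higher in experimental than in control cultures. Of the 44 members, 34 were higher at an adjusted p under 0.05 (77.3%), against 23.5% of all entries tested. The members that were lower numbered 3 (6.82%), against 50.5% of all entries, and they were Psme1 and Psme2, the paired subunits of the PA28 activator, and the assembly chaperone Psmg2. The other 7 members did not pass the test. By raw values, 34 members were higher in every experimental than in every control library, against 24.7% of all entries, and 4 lower, against 51.5%. The median member difference was 0.43 on the log2(FPKM + 1) scale, and 0.64 above the median of all entries. In bulk RNA, fewer cells with a transcript and less of it per cell cannot be told apart.

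The difference was present in every structural part of the 26S particle and less uniform outside it. All 18 genes of the 19S particle and 13 of 14 genes of the 20S core were higher in experimental cultures. Median log2 differences were 0.84 for the base ATPases, 0.74 for the other base subunits, 0.55 for the lid, 0.45 for the beta ring and 0.33 for the alpha ring. The activators and inhibitor had a median of 0.002 and the assembly factors one of -0.004. After median-ratio scaling, which sets the typical gene level between libraries, 39 members were higher and 3 lower, against 36.1% and 36.7% of all entries.

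**Figure D1:**
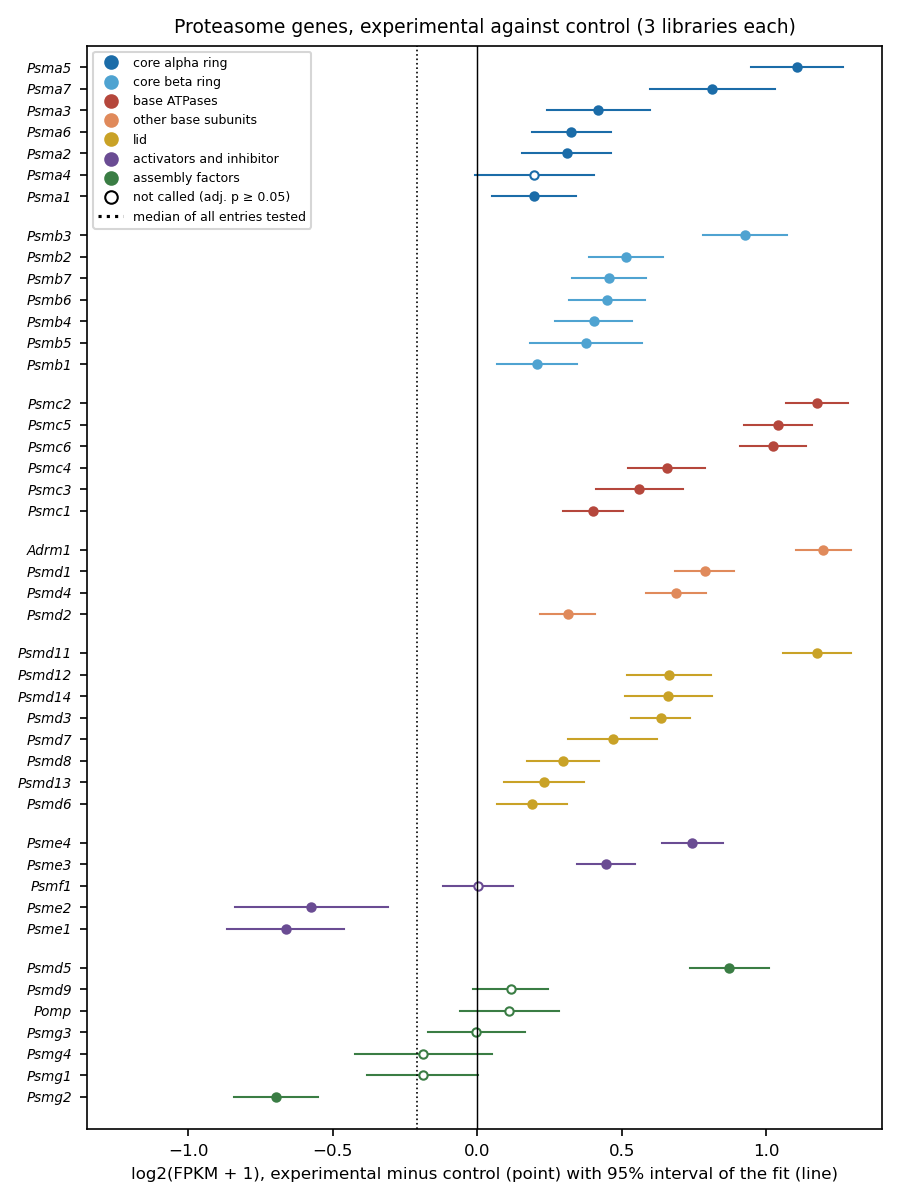
Difference between experimental and control cultures for each of the 44 genes, on the log2(FPKM + 1) scale (horizontal axis), grouped by role; points are fitted differences, lines 95% intervals, filled points passed an adjusted p under 0.05, and the dotted line is the median of all 11974 entries tested. Points of 38 genes lie right of 0, all 18 genes of the 19S particle are filled and right of it, and Psme1, Psme2 and Psmg2 are the filled points on the left. The dotted line lies left of 0, at -0.207.

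In the alpha ring, whose subunits gate the entry to the core, 6 of 7 genes were higher in experimental cultures and differences ranged widely. Psma5 had 155, 156 and 156 FPKM in the intervention libraries, 136, 148 and 131 in the experimental libraries and 62.8, 70.6 and 58.1 in the control libraries. It was 2.17-fold higher in experimental than in control cultures, the largest change of the core (log2 difference 1.11, SE 0.0708, adjusted p = 4.91e-07), and its lowest experimental value stood well above its highest control value. A near-identical pseudogene copy, Psma5-ps, was listed at 8.67, 8.89 and 9.67 FPKM in intervention, 9.65, 9.18 and 8.21 in experimental and 3.77, 4.13 and 4.33 in control cultures, so how reads were split between the pair is uncertain. Psma7 was also higher, by 1.77-fold (adjusted p = 3.09e-05).

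Other alpha subunits differed less. Psma1 read 60.9, 58.2 and 58.2 FPKM in intervention, 48.5, 48.7 and 45.1 in experimental and 38.6, 45.7 and 39.7 in control cultures, with 1 control value inside the experimental range, and had the smallest called difference of the ring (1.15-fold, adjusted p = 0.0188), a call lost without experimental replicate 1 or 2 or control replicate 1 or 3 (adjusted p of 0.0588 to 0.0778) and after scaling to a sum of 1000000 (adjusted p = 0.0561). Psma2, Psma3 and Psma6 were higher by 1.25-fold, 1.35-fold and 1.26-fold, and their groups did not overlap. Psma4 did not pass the test (log2 difference 0.20, SE 0.0923, adjusted p = 0.076). Its values were 60.7, 54.5 and 57.1 FPKM in the intervention libraries, 46.5, 49.9 and 48.03 in the experimental libraries and 40.6, 49.2 and 36.7 in the control libraries, where control replicate 2 lay within the experimental range; without that library Psma4 passed as higher (log2 difference 0.312), as it did after median-ratio scaling (0.437). Psma6 measured 93.8, 93.8 and 84.2 FPKM in intervention, 77.2, 82.5 and 84.1 in experimental and 64.7, 67.8 and 61.4 in control cultures.

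The beta ring carries the cutting sites, and all 7 of its genes were higher in experimental cultures with no overlap between the groups. Psmb5, the chymotrypsin-like subunit that most proteasome inhibitors target, had 62.8, 53.6 and 57.9 FPKM in the intervention libraries, 48.6, 51.8 and 44.6 in the experimental libraries and 37.5, 40.8 and 33.1 in the control libraries. Psmb6, the caspase-like subunit, had 72.7, 66.97 and 68.2 FPKM in intervention, 55.5, 60.4 and 54.1 in experimental and 42.05, 42.7 and 38.9 in control cultures. Psmb7, the trypsin-like subunit, had 36.1, 35.3 and 33.8 FPKM in intervention, 30.4, 32.02 and 29.8 in experimental and 22.2, 23.6 and 20.6 in control cultures. The 3 catalytic genes differed by a similar amount, 1.3-fold for Psmb5, 1.38-fold for Psmb6 and 1.39-fold for Psmb7, with adjusted p of 0.00278, 5.74e-05 and 4.5e-05. Psmb7 shares 11.8% of its annotated exon bases with Nek6 on the opposite strand, which averaged 1.96 FPKM, and the use of strand in counting is not given.

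The non-catalytic beta genes spanned the range of the ring. Psmb3 stood at 83.7, 75.4 and 74.9 FPKM in the intervention libraries, 70.2, 75.4 and 70.2 in the experimental libraries and 38.1, 39.5 and 34.6 in the control libraries, a 1.92-fold higher level in experimental than in control cultures (log2 difference 0.93, SE 0.0644, adjusted p = 7.76e-07). Psmb1 was at the low end, with 52.95, 48.3 and 48.97 FPKM in intervention, 46.9, 45.4 and 42.2 in experimental and 38.6, 41.03 and 36.5 in control cultures (1.16-fold, adjusted p = 0.0112). Psmb2, one of the highest core genes by FPKM, read 149.8, 150.5 and 163 FPKM in the intervention libraries, 149, 151 and 139 in the experimental libraries and 103, 108 and 96.1 in the control libraries (1.43-fold, adjusted p = 2.02e-05). Psmb4 was 1.33-fold higher.

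The base of the 19S particle held the largest differences as a class. The 6 ATPases form the ring that unfolds substrates, and 3 of them at least doubled: Psmc2 by 2.33-fold, Psmc5 by 2.08-fold and Psmc6 by 2.06-fold. Psmc2 had 44.4, 44.6 and 42.9 FPKM in the intervention libraries, 42.4, 43.6 and 39.4 in the experimental libraries and 17.9, 17.97 and 17.97 in the control libraries, with a log2 difference of 1.17 (SE 0.048, adjusted p = 4.87e-08). Its control values were nearly identical (SD 0.0404 FPKM, n = 3). Psmc6 had 66.9, 69.2 and 69.9 FPKM in intervention, 64.5, 66.1 and 66.6 in experimental and 30.1, 34.05 and 31.5 in control cultures (adjusted p = 1.27e-07). Psmc1 moved least, with 100.3, 92.6 and 96.9 FPKM in intervention, 79.7, 80.7 and 79.6 in experimental and 58.9, 62.9 and 59.2 in control cultures (1.33-fold, adjusted p = 2.4e-05). Psmc3 and Psmc4 were 1.49-fold and 1.59-fold higher; Psmc3 shares 8.25% of its exon bases with Slc39a13 on the other strand, which averaged 6.8 FPKM.

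Adrm1, a ubiquitin receptor of the base that also docks the deubiquitinase Uchl5, had the largest difference of all 44 genes. It had 43.4, 44.3 and 45.7 FPKM in the intervention libraries, 45.8, 45.99 and 44.96 in the experimental libraries and 18.7, 19.6 and 19.6 in the control libraries. Experimental cultures averaged 45.6 ± 0.546 FPKM and control cultures 19.3 ± 0.514 FPKM (SD, n = 3 each), a 2.36-fold higher level (log2 difference 1.20, SE 0.0427, adjusted p = 2.67e-08). Another ubiquitin receptor, Psmd4, was 1.62-fold higher, and the scaffold Psmd1 1.75-fold higher. Psmd2, the second large scaffold, had the smallest difference of the class, with 144, 143 and 142 FPKM in intervention, 128, 137 and 129 in experimental and 106, 107 and 103 in control cultures (1.24-fold, adjusted p = 8.21e-05).

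All 8 lid genes were higher in experimental cultures with no overlap between groups. Psmd14, the metalloprotease that cuts ubiquitin chains off substrates, had 44.8, 42.95 and 42.9 FPKM in the intervention libraries, 42.4, 41.5 and 38.9 in the experimental libraries and 23.3, 28.2 and 25.3 in the control libraries (1.6-fold, log2 difference 0.66, SE 0.067, adjusted p = 9.35e-06). Psmd7, its inactive partner, was 1.39-fold higher. Psmd11, a lid scaffold whose raised level is known to increase proteasome assembly in human embryonic stem cells, had 48.02, 50.8 and 52.4 FPKM in the intervention libraries, 47.5, 49.6 and 47.3 in the experimental libraries and 19.6, 21.0 and 21.7 in the control libraries (2.32-fold, log2 difference 1.18, SE 0.053, adjusted p = 7.8e-08). Lid genes with smaller differences were Psmd6, with 34.9, 34.1 and 34.4 FPKM in intervention, 28.7, 30.3 and 27.7 in experimental and 24.3, 27.0 and 24.3 in control cultures (1.14-fold, adjusted p = 0.00967), Psmd13 (1.18-fold), and Psmd8, with 31.98, 33.7 and 33.2 FPKM in intervention, 31.8, 34.7 and 32.4 in experimental and 27.1, 28.0 and 24.9 in control cultures (1.24-fold, adjusted p = 0.000721). The remaining lid genes Psmd3 and Psmd12 were higher by 1.57-fold and 1.59-fold.

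Proteasome subunit genes are known targets of Nfe2l1, which binds antioxidant response elements, so the promoters of members with large and small differences are shown. Sequences are the 250 bases before the RefSeq start of each gene on build GRCm38.p6, plus strand, and capitals mark each match to TGACNNNGC on either strand. Adrm1 and Psmc6 more than doubled and hold 1 match each, Psma5 more than doubled and holds none, and the base chaperone Psmd9 holds 1 and did not pass the test (adjusted p = 0.0955). Psmc2, Psmc5 and Psmd11, not shown, also more than doubled and hold no match in this window. After median-ratio scaling Psmd9 passed as higher (adjusted p = 0.000528). The annotated gene begins inside the window shown for Adrm1 and Psmc6 in GENCODE M21, and upstream of it for Psmd9.
Adrm1, chr2:180171338-180171587: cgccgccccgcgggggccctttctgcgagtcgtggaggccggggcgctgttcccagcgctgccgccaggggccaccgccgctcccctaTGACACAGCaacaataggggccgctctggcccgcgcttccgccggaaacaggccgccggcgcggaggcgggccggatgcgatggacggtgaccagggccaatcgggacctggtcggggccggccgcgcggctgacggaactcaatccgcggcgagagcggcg
Psmc6, chr14:45329574-45329823: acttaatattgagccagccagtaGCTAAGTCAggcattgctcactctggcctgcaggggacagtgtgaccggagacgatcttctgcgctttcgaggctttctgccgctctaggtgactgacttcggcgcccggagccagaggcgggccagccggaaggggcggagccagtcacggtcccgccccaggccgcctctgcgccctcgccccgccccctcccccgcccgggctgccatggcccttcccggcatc
Psma5, chr3:108256676-108256925: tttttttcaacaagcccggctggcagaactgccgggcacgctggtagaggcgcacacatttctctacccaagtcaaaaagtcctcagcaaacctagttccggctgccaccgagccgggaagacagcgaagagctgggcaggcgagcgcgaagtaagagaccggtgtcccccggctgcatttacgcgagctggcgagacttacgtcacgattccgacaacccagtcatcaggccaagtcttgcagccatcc
Psmd9, chr5:123227940-123228189: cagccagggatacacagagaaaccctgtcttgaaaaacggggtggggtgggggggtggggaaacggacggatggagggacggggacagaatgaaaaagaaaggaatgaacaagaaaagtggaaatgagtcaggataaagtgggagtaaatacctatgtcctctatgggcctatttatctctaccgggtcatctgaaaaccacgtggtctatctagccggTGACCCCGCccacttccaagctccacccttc

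Of the 44 members, 37 had a promoter in the RefSeq table. TGACNNNGC was found in the 250 bases before the start of 6 of them (Psmb5, Psmb6, Psmc6, Adrm1, Psmd12 and Psmd9; 16.2%), against 11.5% of 27025 symbols in the table. In Adrm1 the match began 162 bases before the start, and in Psmb5 47 bases before it. CCAAT, the box bound by NF-Y, was found in 12 (32.4%, against 37.5%), the heat shock pair GAANNTTC in 2 (5.41%, against 7.73%), and the half-site pair of the interferon-stimulated response element in 3 (8.11%, against 3.46%). Each motif was searched on both strands, and a match is a description of letters, not a bound site.

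Activators split by family. Psme1 and Psme2 encode the interferon-inducible ring PA28, lie near each other on mouse chromosome 14 (mm10, chr14:55578123-55581529 and chr14:55587441-55591113), and both were lower in experimental cultures. Psme1 had 12.3, 9.43 and 10.8 FPKM in the intervention libraries, 9.61, 10.8 and 9.27 in the experimental libraries and 16.9, 15.2 and 16.6 in the control libraries (0.61-fold, log2 difference -0.66, SE 0.0903, adjusted p = 7.73e-05). Psme2 had 12.9, 10.2 and 10.7 FPKM in the intervention libraries, 9.05, 9.34 and 6.89 in the experimental libraries and 13.5, 11.5 and 13.9 in the control libraries (0.649-fold, log2 difference -0.57, SE 0.119, adjusted p = 0.00137). Neither gene overlapped between experimental and control cultures. Psme2b, a near-identical copy of Psme2, was listed at 8.9, 8.2 and 8.71 FPKM in intervention, 6.14, 6.3 and 7.46 in experimental and 11.4, 16.8 and 8.26 in control cultures, a level close to that of Psme2, so the Psme2 value is uncertain.

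The nuclear activators moved the other way. Psme3, the PA28-gamma ring, had 59.5, 61.8 and 59.4 FPKM in the intervention libraries, 57.6, 57.8 and 57.2 in the experimental libraries and 40.1, 43.7 and 42.2 in the control libraries (1.37-fold, adjusted p = 8.8e-06). Psme4, the single-chain activator PA200, known for degrading acetylated histones, had 39.4, 39.8 and 37.9 FPKM in the intervention libraries, 38.7, 38.1 and 39.3 in the experimental libraries and 22.1, 22.04 and 23.99 in the control libraries (1.7-fold, log2 difference 0.74, SE 0.0475, adjusted p = 4.84e-07). Both were higher in every experimental than in every control library. Psmf1, known as an inhibitor of the core in vitro, was low and level, with 4.6, 4.58 and 4.61 FPKM in intervention, 4.86, 4.62 and 4.34 in experimental and 4.57, 4.52 and 4.69 in control cultures (log2 difference 95% interval -0.119 to 0.124, adjusted p = 0.968), although it passed as higher after median-ratio or quantile scaling.

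Of 7 assembly factors, Psmd5 was higher (14.3%, against 23.5% of all entries), Psmg2 lower (14.3%, against 50.5%), and 5 were not called. After median-ratio scaling 4 were higher (57.1%, against 36.1%) and 1 lower. Psmd5, a chaperone of the base, had 21.4, 20.1 and 21.1 FPKM in the intervention libraries, 17.5, 18.4 and 15.7 in the experimental libraries and 8.79, 9.28 and 8.7 in the control libraries (1.93-fold, log2 difference 0.87, SE 0.0615, adjusted p = 8.51e-07). Psmg2, which with Psmg1 forms a chaperone of the alpha ring, had 9.01, 8.37 and 9.16 FPKM in the intervention libraries, 6.38, 6.6 and 6.41 in the experimental libraries and 11.2, 12.03 and 10.1 in the control libraries (0.582-fold, log2 difference -0.70, SE 0.0648, adjusted p = 5.32e-06). Every control value of Psmg2 exceeded every experimental value. Psmg1 had 8.58, 8.12 and 7.43 FPKM in intervention, 8.3, 6.45 and 8.03 in experimental and 9.0, 8.84 and 8.4 in control cultures, and its difference of -0.19 did not pass the test (adjusted p = 0.0709) and was 0.0301 after median-ratio scaling; it passed as lower without experimental replicate 1 (log2 difference -0.248) and after scaling to a sum of 1000000 (-0.266).

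Pomp, the maturation factor that binds half-built cores and is their first substrate, had 13.0, 12.4 and 11.5 FPKM in the intervention libraries, 10.1, 10.7 and 9.35 in the experimental libraries and 8.85, 10.3 and 8.56 in the control libraries. It differed by 0.11 on the log2 scale between experimental and control cultures (95% interval -0.061 to 0.283, adjusted p = 0.214), with overlapping groups, and passed without control replicate 2 (log2 difference 0.184). Psmg4, a partner of Psmg3 in the second alpha-ring chaperone, had 13.99, 10.1 and 12.6 FPKM in the intervention libraries, 8.54, 9.33 and 8.34 in the experimental libraries and 11.1, 9.07 and 10.2 in the control libraries (adjusted p = 0.137). Psmg3 averaged 4.23 ± 0.18 FPKM in experimental and 4.25 ± 0.373 FPKM in control cultures (SD, n = 3 each; adjusted p = 0.967). Psmd9, a base chaperone, averaged 5.52 ± 0.231 FPKM in experimental and 5.01 ± 0.237 FPKM in control cultures (SD, n = 3 each). It shares 25.5% of its annotated exon bases with Gm26745 on the opposite strand, which has no entry in these data. After median-ratio scaling Pomp, Psmg3 and Psmd9 passed the test as higher, and Psmg1 and Psmg4 did not.

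**Figure D2:**
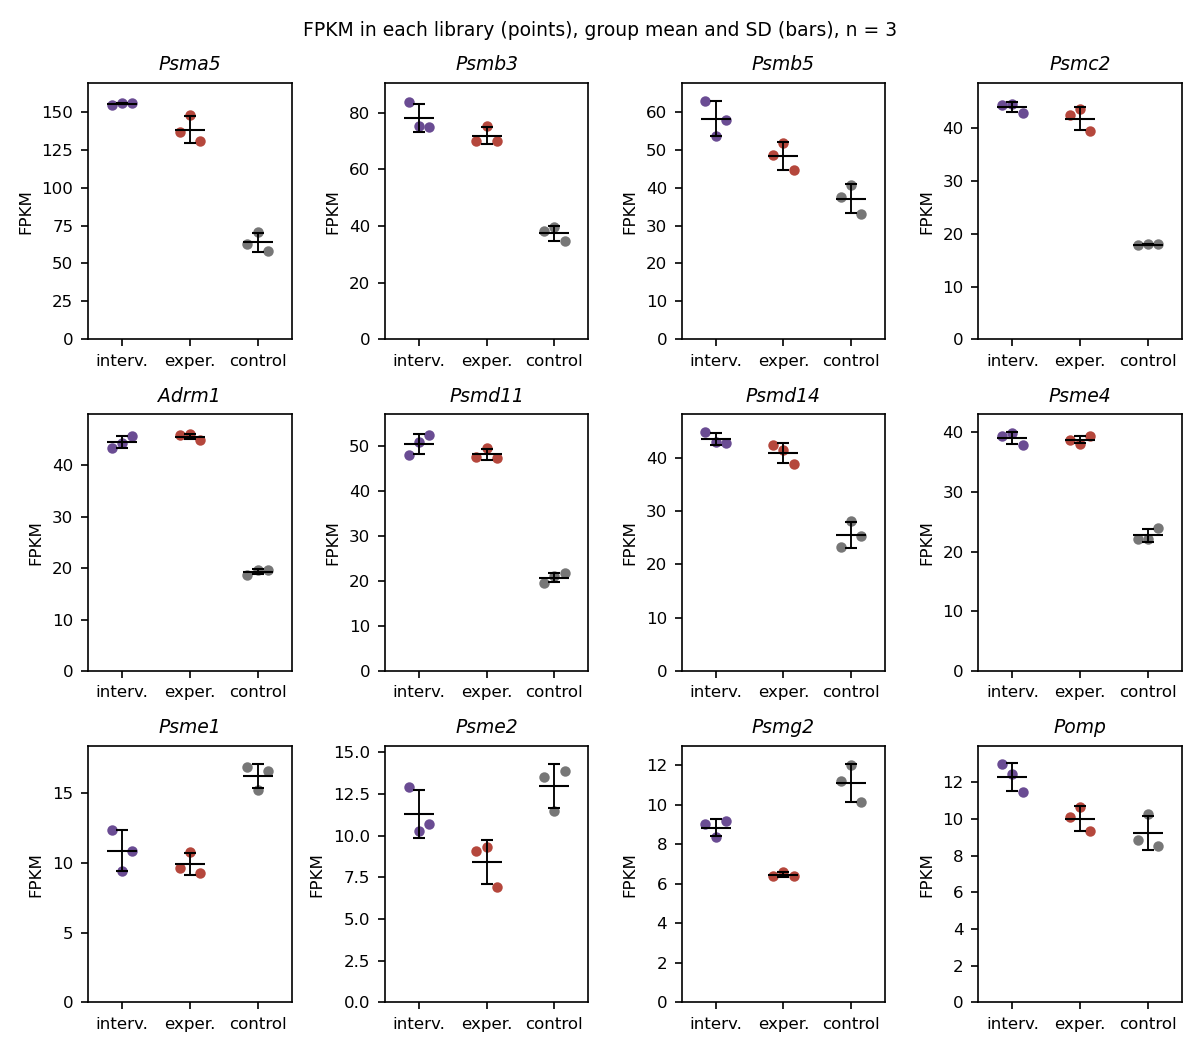
FPKM (vertical axes, from 0) of 12 genes in each library, with the group mean and SD (n = 3), for intervention, experimental and control cultures from left to right. Psma5, Psmb3, Psmc2, Adrm1, Psmd11, Psmd14 and Psme4 are higher in both other groups than in control without overlap, Psme1 is lower in both, and Psmg2 is lowest in experimental cultures.

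The 44 genes together made up 0.748% ± 0.00588 of summed FPKM in intervention, 0.678% ± 0.0274 in experimental and 0.48% ± 0.0161 in control libraries (SD, n = 3 each), and the 3 groups did not overlap. The mean level of 19S genes relative to that of 20S genes was 0.959 ± 0.018 in intervention, 0.991 ± 0.0181 in experimental and 0.909 ± 0.0419 in control libraries. Experimental libraries (0.974 to 1.01) lay above all control libraries (0.873 to 0.955), and intervention libraries (0.938 to 0.971) overlapped the control libraries. The mean of Psme1 and Psme2 was 14.8% ± 1.63 of the mean core gene in intervention, 13.9% ± 0.964 in experimental and 32.3% ± 4.67 in control libraries; intervention (13.4 to 16.6) and experimental libraries (12.8 to 14.6) overlapped, and control libraries lay above both. The mean of Psmg1 to Psmg4 was 11.5% ± 0.721 of the mean core gene in intervention, 10.3% ± 0.491 in experimental and 18.8% ± 1.23 in control libraries. Intervention (10.7 to 12.1) and experimental libraries (9.74 to 10.7) met, and control libraries lay above both. The core genes summed to 1024 to 1067 FPKM in intervention, 884.5 to 962.4 in experimental and 589.2 to 689 in control libraries. These ratios therefore also reflect the level of the core. Core genes were not equal in FPKM, although each core holds its subunits in equal number. The highest was 5.93 to 7.09 times the lowest within a library, and the lowest of the core was Psma3 in all 9 libraries. The gene lengths behind the FPKM are not given, and how far length scaling sets this spread was not tested.

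**Figure D3:**
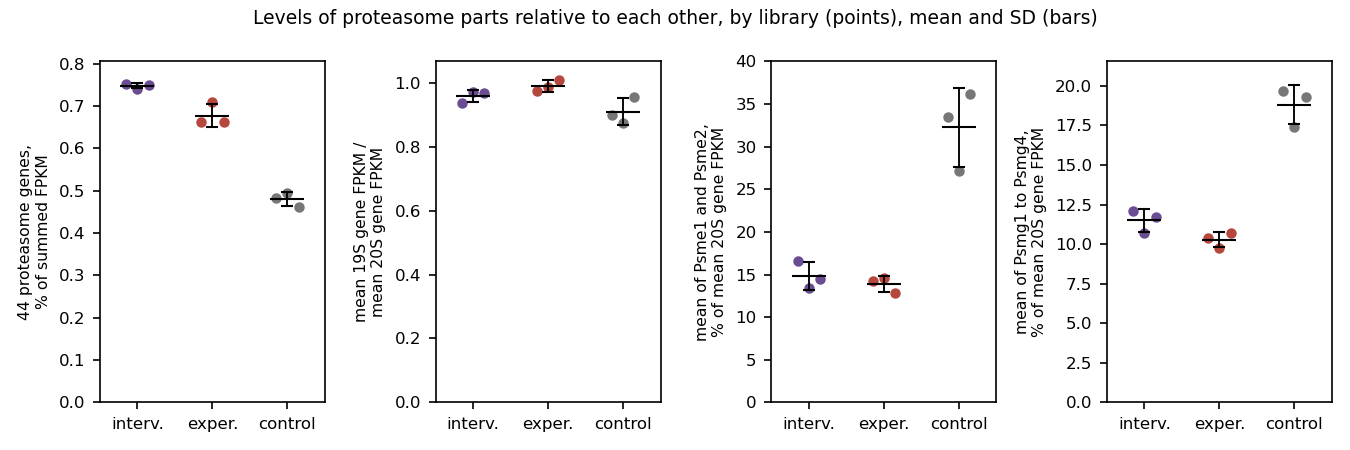
Share of summed FPKM taken by the 44 genes (percent), and levels of parts relative to the 20S core, in each library (points) with mean and SD (n = 3 per group), intervention, experimental and control from left to right. The share is lowest in control libraries, at 0.4628% to 0.4948%, where Psme1 with Psme2 and Psmg1 to Psmg4 are highest relative to the core. The core itself is lowest in control libraries.

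Between intervention and experimental cultures the differences were small, and fitted differences were above 0 for 41 of 44 members, 9 of which were below 0 after median-ratio scaling. The median of all entries was also above 0, at 0.095, and the share of all entries above 0 was not counted. Of the 44 members, 13 were higher in intervention cultures (29.5%), against 15.9% of all entries tested, and 0 were lower, against 3.6%. With only entries of a mean of at least 5 FPKM, 15 members were higher, against 22.1% of those entries, and 0 lower, against 4.89%. At an unadjusted p under 0.05 by limma, 27 of the 44 were higher, against 30.6% of all entries, and 0 lower, against 7.38%. The assembly factors held 5 of the 13, namely Pomp, Psmg2, Psmg3, Psmg4 and Psmd5. The core added Psma1, Psmb4, Psmb6 and Psmb7, the 19S particle Psmc1, Psmd6 and Psmd7, and the activators Psme2. The median member difference was 0.155 on the log2 scale, 0.06 above the median of all entries.

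These calls depended on scaling and on single libraries. After median-ratio scaling 4 members were higher (Psmb6, Psmc1, Psmg2 and Psmg4; 9.09%), against 5.39% of all entries, and 0 lower, against 6.61%. Members called higher numbered 4 without intervention replicate 3 (6.44% of all entries), 7 without control replicate 1 (11.6%), and 0 without experimental replicate 1, experimental replicate 3 or intervention replicate 1, when limma called 1, 4 and 6 of all 11974 entries. At an unadjusted p under 0.05, 18, 16 and 19 members were higher in those 3 fits, against 22.6%, 23.3% and 21.3% of all entries.

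Among assembly factors, Psmg4 had the largest difference, 1.4-fold (log2 difference 0.43, SE 0.106, adjusted p = 0.0254), and its intervention values all exceeded its experimental values. Psmg2 was 1.37-fold higher in intervention cultures (log2 difference 0.40, SE 0.0648, adjusted p = 0.0151). Pomp was 1.23-fold higher (adjusted p = 0.0385), Psmg3 1.24-fold higher (adjusted p = 0.0423) and Psmd5 1.21-fold higher (adjusted p = 0.022). Psmg1 differed least, by 0.08 (adjusted p = 0.529), and by -0.00943 after median-ratio scaling.

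In the core, Psma1 differed most (1.25-fold, log2 difference 0.31, SE 0.0649, adjusted p = 0.0176) and Psma6 least of the alpha ring (1.11-fold, adjusted p = 0.094). In the beta ring, the catalytic genes were higher by 1.22-fold for Psmb6 (adjusted p = 0.0171) and 1.14-fold for Psmb7 (adjusted p = 0.0487). Psmb5 did not pass the test (1.2-fold, adjusted p = 0.0602), although its groups did not overlap, as was so for 33.7% of all entries in that direction. Psmb2 differed least of the ring (1.05-fold, adjusted p = 0.362).

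The 19S genes with the largest differences between experimental and control cultures did not pass the test here. Adrm1 averaged 44.5 ± 1.17 FPKM in intervention and 45.6 ± 0.546 FPKM in experimental cultures (SD, n = 3 each), with a 95% interval of the log2 difference of -0.13 to 0.06. Intervals were -0.035 to 0.179 for Psmc2, -0.052 to 0.176 for Psmc6 and -0.053 to 0.184 for Psmd11. The ATPase Psmc1, with the smallest ATPase difference between experimental and control, was 1.21-fold higher in intervention cultures (log2 difference 0.27, SE 0.0464, adjusted p = 0.0151). In the lid, Psmd6 was 1.19-fold higher (adjusted p = 0.0194), Psmd14 did not pass the test (1.06-fold, adjusted p = 0.365), and Psmd8 averaged 32.9 ± 0.87 FPKM in intervention and 32.96 ± 1.53 FPKM in experimental cultures. Psmd2 had the largest difference among the other base subunits (1.09-fold, adjusted p = 0.0665).

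Psme2 was 1.34-fold higher in intervention than in experimental cultures (log2 difference 0.39, SE 0.119, adjusted p = 0.0475). Its partner Psme1 did not pass the test (1.1-fold, adjusted p = 0.357), and neither did Psme3 (1.05-fold), Psme4 (1.01-fold) or Psmf1 (0.998-fold).

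**Figure D4:**
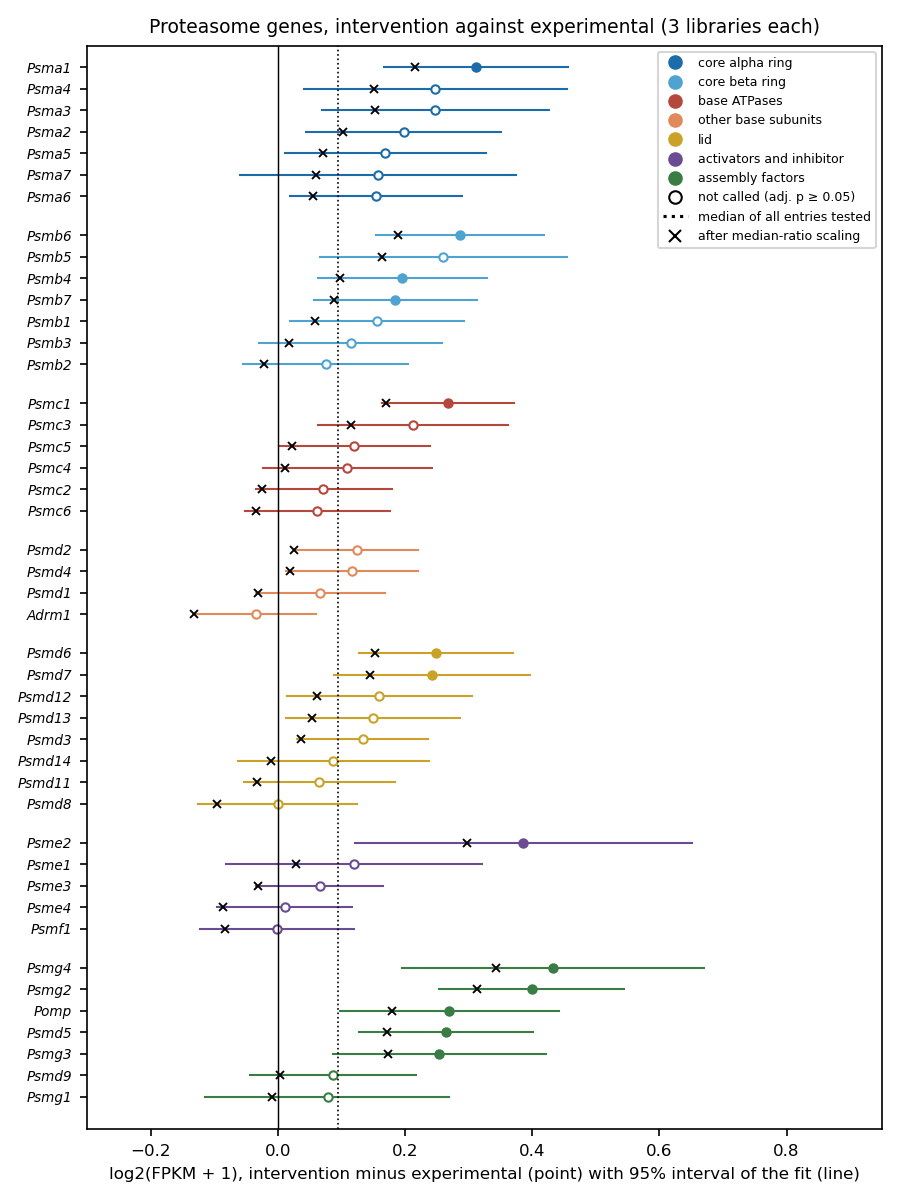
Difference between intervention and experimental cultures for each of the 44 genes on the log2(FPKM + 1) scale (horizontal axis), by role; points are fitted differences with 95% intervals, filled where the adjusted p was under 0.05, crosses the differences after median-ratio scaling, and the dotted line the median of all entries tested. Points of 41 genes lie right of 0 (9 of their crosses lie left of it), 13 of them filled, and 5 of the filled points are assembly factors. The dotted line also lies right of 0, at 0.095.

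Intervention cultures stood above control cultures in nearly all members. Of 44 genes, 38 were higher (86.4%), against 24.1% of all entries tested, and 2 were lower (Psme1 and Psmg2; 4.55%), against 41.1%. All 32 listed subunits of the 26S particle were among the 38. The median member difference was 0.64 on the log2 scale, 0.74 above the median of all entries. After median-ratio scaling 39 were higher and 2 lower, against 33.4% and 31.6% of all entries. This comparison shares its libraries with the others, so its values are given side by side with theirs.

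The largest differences between intervention and control cultures were those of Psma5 (2.43-fold, log2 difference 1.27, SE 0.0708, adjusted p = 3.75e-07), Psmc2 (2.45-fold, log2 difference 1.25, SE 0.048, adjusted p = 5.4e-08) and Psmd11 (2.43-fold, log2 difference 1.24, SE 0.053, adjusted p = 9.3e-08). Adrm1 was 2.3-fold higher, against 2.36-fold in experimental cultures. In the beta ring Psmb3 was 2.08-fold higher and Psmb1 1.29-fold, and the catalytic genes were 1.57-fold (Psmb5), 1.68-fold (Psmb6) and 1.58-fold (Psmb7) higher. Psmd8 had the smallest difference of the 26S particle (1.24-fold, adjusted p = 0.000947), while Psma4 was 1.36-fold, Psmc1 1.6-fold, Psmd2 1.36-fold and Psmd14 1.7-fold higher.

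Outside the 26S particle, Psme4 was 1.72-fold and Psme3 1.43-fold higher in intervention than in control cultures, and the base chaperone Psmd5 2.33-fold higher. Pomp was 1.33-fold higher (adjusted p = 0.00149), Psmg3 1.23-fold (adjusted p = 0.0137) and Psmd9 1.18-fold (adjusted p = 0.011). Psme1 was lower (0.67-fold, adjusted p = 0.00043), and so was Psmg2 (0.796-fold, adjusted p = 0.00243). Psme2 (0.87-fold, adjusted p = 0.188), Psmf1, Psmg1 and Psmg4 did not pass the test. Psmg3 lost its call without intervention replicate 3 (log2 difference 0.212) or control replicate 3 (0.192), and both Psmg3 (0.21) and Psmd9 (0.153, adjusted p = 0.0552) lost it after scaling to a sum of 1000000. Psmg4 gained a call without intervention replicate 2 (0.365) or control replicate 1 (0.309), and after median-ratio (0.378) or quantile scaling (0.367). Psmf1 gained a call as higher after quantile scaling (adjusted p = 0.0255).

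Of 6 genes tied to proteasome control, most of them acting through Nfe2l1, 5 were higher in experimental than in control cultures and 1 lower, against 23.5% and 50.5% of all entries tested. Vcp, the ATPase that extracts Nfe2l1 from the endoplasmic reticulum, had 196, 201 and 192 FPKM in the intervention libraries, 188, 191 and 184 in the experimental libraries and 107, 106 and 103 in the control libraries (1.78-fold, log2 difference 0.82, SE 0.0411, adjusted p = 1.25e-07). Nfe2l1 itself had 81.7, 83.8 and 83.1 FPKM in intervention, 75.5, 79.3 and 81.03 in experimental and 68.8, 62.05 and 67.8 in control cultures (1.19-fold, adjusted p = 0.00144). Ddi2, the protease that activates Nfe2l1, was 1.71-fold higher and Akirin2, which carries proteasomes into the nucleus, 1.13-fold higher. Ngly1, the deglycosylase that edits Nfe2l1, was the lower gene, with 1.34, 1.08 and 1.21 FPKM in the intervention libraries, 1.03, 0.88 and 0.93 in the experimental libraries and 2.1, 2.43 and 2.29 in the control libraries (adjusted p = 1.41e-05). Nfe2l2, the oxidative stress factor that binds the same element, had 34.1, 37.8 and 35.5 FPKM in the intervention libraries, 42.9, 40.8 and 41.8 in the experimental libraries and 25.03, 26.4 and 25.5 in the control libraries; it was 1.63-fold higher in experimental than in control cultures (adjusted p = 1.02e-06) and lower in intervention than in experimental cultures (0.857-fold, adjusted p = 0.0213). Nfe2l2 was the 1 of the 6 called lower in that comparison (16.7%, against 3.6% of all entries), and 0 were higher, against 15.9%. After median-ratio scaling Ddi2 was also called lower in intervention than in experimental cultures (adjusted p = 0.0469). Without experimental replicate 1 or 3 (no such scaling), 0 of all 11974 entries were called lower between these cultures, so the Nfe2l2 call was lost. Between intervention and control cultures 5 of the 6 were higher and Ngly1 lower, against 24.1% and 41.1% of all entries.

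Of 13 cofactors and further subunits of the proteasome, 12 were tested (Paaf1 was not analysed here), and 7 were higher (58.3%, against 23.5% of all entries), 2 lower (16.7%, against 50.5%) and 3 not called between experimental and control cultures. The largest increase was that of Zfand5, a zinc finger protein that stimulates the proteasome, with 17.5, 18.9 and 18.3 FPKM in the intervention libraries, 21.2, 18.8 and 21.2 in the experimental libraries and 9.22, 10.1 and 10.4 in the control libraries (2.06-fold, adjusted p = 5.96e-07). Rad23b was 1.62-fold and Ubqln1 1.84-fold higher, both of them shuttle factors that carry ubiquitinated cargo to the proteasome. The ubiquitin ligase Ube3c was lower (0.73-fold, adjusted p = 0.000105). Psmd10, a chaperone of the base outside the member list, had 23.5, 22.4 and 23.1 FPKM in the intervention libraries, 17.4, 18.3 and 17.4 in the experimental libraries and 21.3, 25.6 and 23.1 in the control libraries; it was lower in experimental than in control cultures (adjusted p = 0.000388, and 0.0709 after median-ratio scaling). Between intervention and experimental cultures 2 of these were higher (16.7%, against 15.9% of all entries), Psmd10 (1.3-fold, adjusted p = 0.0153) and the deubiquitinase Usp14 (1.18-fold, adjusted p = 0.0268, and 0.11 after median-ratio scaling). The 1 lower gene (8.33%, against 3.6% of all entries) was Ubqln1 (0.823-fold, adjusted p = 0.0259). Without experimental replicate 1 or 3, limma called 0 of all 11974 entries lower between these cultures, so the Ubqln1 call was lost. It called 1 and 4 entries higher in those fits, through which Psmd10 and Usp14 were not followed. Between intervention and control cultures 8 of the 12 tested were higher (66.7%, against 24.1%) and 1 lower (8.33%, against 41.1%). Txnl1 had the largest increase (1.84-fold), and Ube3c was the lower gene (0.837-fold, adjusted p = 0.00551, and 0.142 after median-ratio scaling).

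Of the tissue-specific subunits, Psmb8, Psmb9 and Psmb11 stayed under the filter of 1 FPKM in 3 libraries. Psmb10, which replaces Psmb7 in the immunoproteasome, had 3.79, 3.0 and 3.95 FPKM in the intervention libraries, 2.07, 2.28 and 2.0 in the experimental libraries and 3.78, 4.28 and 3.25 in the control libraries. It was lower in experimental than in control cultures (adjusted p = 0.00033), higher in intervention than in experimental cultures (adjusted p = 0.0153), and not called between intervention and control cultures (adjusted p = 0.629). Without experimental replicate 1 or 3, limma called 1 and 4 of all 11974 entries higher in intervention than in experimental cultures. Psmb10 was not followed through those fits.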

How the data were processed

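Per the labels' protocols, RNA came from a Qiagen RNeasy extraction and 9 libraries were prepared with the SMARTer mRNA-Seq chemistry. The authors deposited 1 FPKM table (per the file headers) with 1 column per library; the build is mm10, per the submitters' processing notes, and for the aligner, counter, annotation and strand setting the sources used here give nothing. Among entries under 200 bases, 1313 of 8158 values (16.1%) were below what 1 read gives in a library of 200000000 reads, so whole reads were not recovered and depth is unknown.

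Entries with at least 1 FPKM in at least 3 of 9 libraries (11974 of 29756, all 44 members among them; lowest member value 3.83 FPKM) were tested as log2(FPKM + 1), a scale that understates changes of low genes. limma 3.58.1 in R 4.3.3 (eBayes with trend, all 9 libraries in 1 fit, 6 residual degrees of freedom, 2-sided) gave each adjusted p, by Benjamini-Hochberg over all entries tested, called under 0.05; the script was tested on simulated data. Folds are ratios of mean FPKM, intervals 95%. Library values are given for catalytic subunits, Psmd14, Pomp, Psme1 to Psme4, and for the members with the largest and smallest difference of each class in each comparison; values of other genes were added where a result turns on them. Members and lists were chosen with earlier results of these data known. Class counts carry no test. From the cofactor list 1 gene is not reported here and is left out of its counts. Promoters are from RefSeq (GRCm38.p6, 37 of 44 members matched), gene positions from GENCODE M21. Alternatives were other pseudocounts (0.1), filters, scalings and fits, a replicate block, and leaving out each library.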

Additional observations from a re-analysis of the deposited data

How the results depend on the processing

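Of the members called, 36 of 37 between experimental and control and 38 of 40 between intervention and control kept direction and call under every alternative that could be run (up to 18), and none of the 13 between intervention and experimental did. The share of all entries that kept their calls was not counted. Leaving out 1 library gave 33 to 36 higher members between experimental and control (21.7% to 23.4% of all entries) and 3 to 4 lower (47.5% to 50.4%). Between intervention and control it gave 37 to 39 higher (22.2% to 24%) and 2 lower (37.5% to 41%). Between intervention and experimental it gave 0 to 19 higher (0.00835% to 17.3%) and 0 lower (0% to 4.22%). In that comparison members called higher numbered 2 with no filter (0.928% of all entries), 4 with median-ratio scaling (5.39%), 4 with quantile normalization (3.83%) and 8 with the replicate block (8.72%). That block was on numbers whose same-number correlations were -0.182 to 0.11 and so do not pair libraries. It left the other counts at 34 and 3 (23.1% and 49.8% of all entries), and 38 and 2 (23.3% and 40%). The cause of these changes was not tested. Medians relative to all entries between experimental and control were 0.692 (pseudocount 0.1), 0.441 (no filter), 0.588 (mean of at least 5 FPKM), 0.671 (median-ratio), 0.431 (quantile), 0.675 (sum of 1000000) and 0.616 to 0.677 without 1 library. Between intervention and control they were, in that order, 0.777, 0.647, 0.703, 0.761, 0.611, 0.763 and 0.678 to 0.796. Between intervention and experimental they were 0.042 (pseudocount 0.1), 0.15 (no filter), 0.041 (median-ratio), 0.101 (quantile), 0.045 (sum of 1000000) and 0.036 to 0.074 without 1 library. Differences in share of summed FPKM without 1 library were 0.182 to 0.206, 0.0618 to 0.0858 and 0.259 to 0.275 percentage points for experimental against control, intervention against experimental and intervention against control.

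Sign changes fell on members not called. Between experimental and control, median-ratio scaling gave 0.0301 for Psmg1, 0.194 for Psmg3 (adjusted p = 0.0275) and 0.0348 for Psmg4, quantile normalization gave 0.0462, 0.286 (adjusted p = 0.00352) and 0.0322 for the same genes, and a sum of 1000000 gave -0.0577 for Psmf1. Without 1 library Psmf1 ranged from -0.0299 to 0.0371 and Psmg3 from -0.062 to 0.0382. Between intervention and experimental, median-ratio scaling gave -0.0224 for Psmb2, -0.0249 for Psmc2, -0.0354 for Psmc6, -0.0309 for Psmd1, -0.0315 for Psmd11, -0.00955 for Psmd14, -0.0312 for Psme3, -0.0857 for Psme4 and -0.00943 for Psmg1. Quantile normalization gave -0.0292 for Psmd9, -0.0232 for Psme4 and -0.0291 for Psmg1, and a sum of 1000000 -0.00252 for Psme4. Without 1 library the ranges were -0.0249 to 0.0363 for Psmd8, -0.0031 to 0.0309 for Psme4, -0.0362 to 0.0309 for Psmf1 and -0.0211 to 0.139 for Psmg1. Between intervention and control, Psmg1 was 0.0207 with median-ratio and 0.0171 with quantile scaling, and Psmf1 was -0.072 with a sum of 1000000 and -0.00849 to 0.0134 without 1 library. The mean filter of 5 FPKM left out 2 members. Depth is unknown, so counting error could not be set beside these values.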
